A study of Mus musculus with 24 samples.

Results

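The renin-angiotensin system was examined in mammary gland RNA from 24 aged transgenic mice through 7 genes, Agt, Ren1, Ace, Agtr1a, Agtr2, Mas1 and Lnpep. They were picked by symbol from a matrix of 55487 genes, and the set was chosen because Agt had been seen to be higher with tamoxifen in these same libraries. The tamoxifen values of the 7 genes are therefore given as a description, with no test. Agt, Ace, Agtr1a, Mas1 and Lnpep reached 1 TPM (a transcript's share of its library after correction for length, scaled to a total of 1000000) in at least 3 samples, the minimum for testing. Ren1 and Agtr2 did not, so 5 of the 7 genes were tested.

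Angiotensinogen, the product of Agt, is the precursor of all angiotensins. Renin (Ren1) cuts it to angiotensin I, and angiotensin-converting enzyme (Ace) trims that to angiotensin II, which acts mainly through the receptor encoded in mice by Agtr1a and also through Agtr2. Mas1 is the receptor of a shorter peptide that tends to oppose angiotensin II, and Lnpep is a membrane aminopeptidase that binds another short angiotensin and also cleaves oxytocin and vasopressin. The liver is the main source of circulating angiotensinogen, and adipose tissue, which makes up much of the mouse mammary fat pad, also makes it.

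All mice carried the rtTA activator under the MMTV promoter, genotype MMTV-rtTA, together with a tet-op transgene, either CYP19A1, which encodes the oestrogen-making enzyme aromatase, or Esr1, which encodes oestrogen receptor alpha. In each line 3 mice were taken at 20 months of age after 2 months with a tamoxifen pellet (25 mg released over 60 days), 3 at 20 months after 2 months with a letrozole pellet (2.5 mg over 60 days), 3 at 20 months without a stated drug and 3 at 18 months without a stated drug. Transgenes had been induced for 8 months in the 20-month mice and for 6 months in the 18-month mice. The library names of the 18-month mice carry the tag Doxy, read here as doxycycline, and those of the 20-month mice name no inducer. Tamoxifen modulates the oestrogen receptor, and letrozole blocks aromatase. The 20-month mice without a drug carry an unexplained tag, PLA, and are called untreated here, although a drug-free pellet cannot be told apart from none. The 18-month mice lack this tag and had shorter induction. Age, length of induction and whatever the tag stands for therefore cannot be told apart, and differences with age below include all of these. Every mouse carried a transgene, and MMTV drives expression mainly in epithelium, so the lines are compared with each other and not with wild-type glands.

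The libraries were whole glands, so fewer cells of a type and less RNA per cell cannot be told apart. White adipocyte, fibroblast, epithelial, endothelial and mast cell marker lists were detected in every group. Skeletal muscle markers summed to between 21.6 and 6290 TPM in the CYP19A1 glands at 18 months and to at least 5350 TPM in every 20-month gland. Ribosomal RNA genes took over 1% of the TPM in 3 libraries and a median of 0.0577% over all 24. Those 3 were tamoxifen replicate 2 of the Esr1 line at 1.92%, and untreated replicates 2 and 3 of that line at 17.4% and 2.02%. Between 14410 and 17684 genes per library reached 1 TPM. Genes named Rn7s took 19.9 to 38.8% of the TPM, mitochondrial genes 9.82 to 27.9% and other protein-coding genes 28.4 to 37.3%. In the CYP19A1 line the mitochondrial share was 13.7 to 17.5% at 18 months and 21.0 to 27.9% at 20 months untreated. In the Esr1 line these groups overlapped.

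In GRCm38.p6 coordinates from RefSeq, Agt lies at chr8:124556587-124569706, Ren1 at chr1:133350674-133360320 and Ace at chr11:105967948-105989964. The receptor genes are Agtr1a at chr13:30336356-30382867, Agtr2 at chrX:21484624-21488833 and Mas1 at chr17:12838841-12868150, and Lnpep lies on the same chromosome as Mas1, at chr17:17527723-17624489. The precursor, the converting enzyme and the aminopeptidase were readily detected, while renin and the Agtr2 receptor were near the floor of the table. Per length, Lnpep was the most abundant of the 7 genes, with a mean of 45.5 TPM over the 24 glands. Agt followed at 19.6 TPM, Ace at 14.1 TPM, Agtr1a at 9.78 TPM and Mas1 at 1.14 TPM. Ren1 averaged 0.0846 TPM and did not exceed 0.50 TPM in any gland, and Agtr2 averaged 0.0783 TPM with a highest value of 0.44 TPM. The second mouse gene of the angiotensin II receptor, Agtr1b, averaged 0.015 TPM, so nearly all of the type 1 receptor signal came from Agtr1a. Relative to its mean, Agt varied more between glands than any other tested gene of the set, from 1.48 to 79.3 TPM, whereas Lnpep lay between 33.3 and 55.3 TPM in all but Esr1 untreated replicate 2, the library with most ribosomal RNA, at 19.4 TPM.

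**Figure D1:**
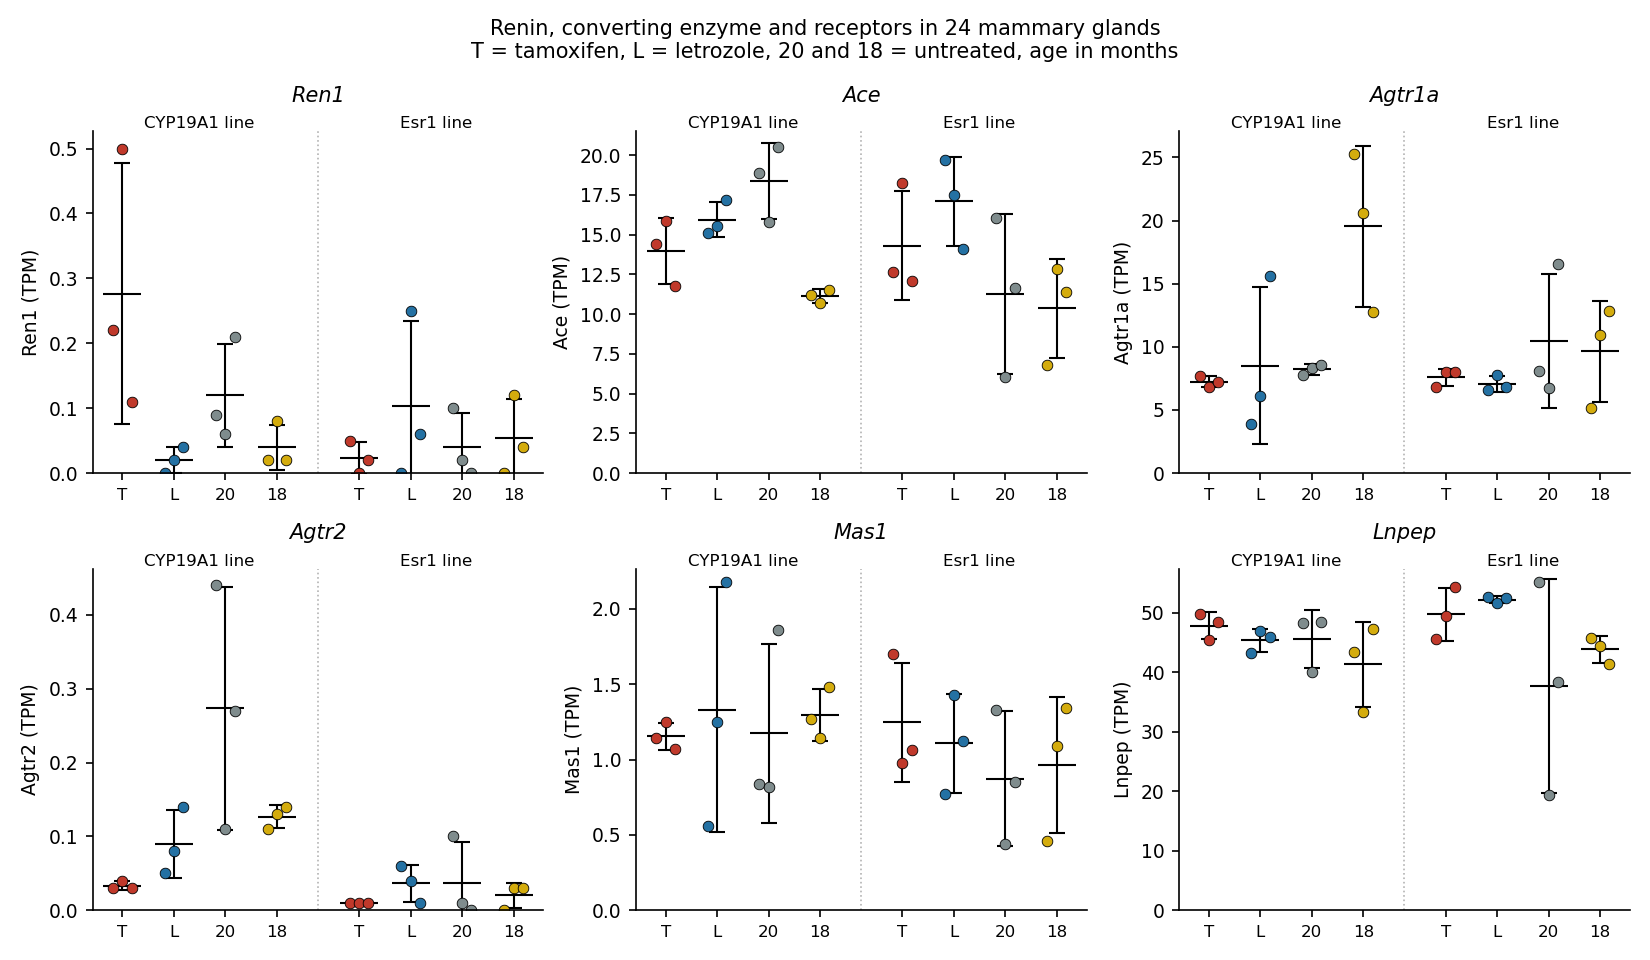
TPM of Ren1, Ace, Agtr1a, Agtr2, Mas1 and Lnpep in each of the 24 glands (points, replicates 1 to 3 from left to right), with group means and SD (bars); T is tamoxifen, L letrozole, 20 and 18 are untreated glands by age in months. Ren1 and Agtr2 stay at or under 0.50 TPM, and Agtr1a is highest in the CYP19A1 glands at 18 months. Lnpep spreads from 19.4 to 55.3 TPM in the Esr1 untreated glands at 20 months and less in the other groups.

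Agt was highest with tamoxifen in both lines. In the CYP19A1 line it measured 40.9, 41.2 and 31.6 TPM in the 3 tamoxifen glands and 10.8, 8.24 and 9.96 TPM in the 3 untreated glands of the same age. The groups were well apart, and the mean with tamoxifen was 3.92 times the untreated mean. Among Esr1 mice it measured 14.9, 49.1 and 79.3 TPM in tamoxifen glands and 12.8, 1.48 and 5.84 TPM in untreated glands. Every tamoxifen gland was above every untreated gland here too, but the lowest tamoxifen gland, replicate 1, was close to the highest untreated gland. On the log2(TPM + 1) scale the difference was 1.87 ± 0.56 (SE) in the CYP19A1 line, 2.70 ± 0.56 in the Esr1 line and 2.28 ± 0.40 averaged over the lines, with no test because this contrast chose the gene.

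The size of the Esr1 difference leaned on 3 libraries. Without the 3 libraries over 1% ribosomal RNA, which left 1 untreated Esr1 gland that was assumed to vary like the other groups, it was 1.37. With the muscle and adipocyte markers as covariates it was 1.95. After rescaling to leave out the 100 most abundant gene models, Agt measured 57.9, 160 and 271 in the Esr1 tamoxifen glands and 38.2, 6.76 and 19.7 in the Esr1 untreated glands, so that the groups stayed apart. The part of the ribosomal RNA share in the Esr1 values was not tested beyond leaving those libraries out.

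**Figure D2:**
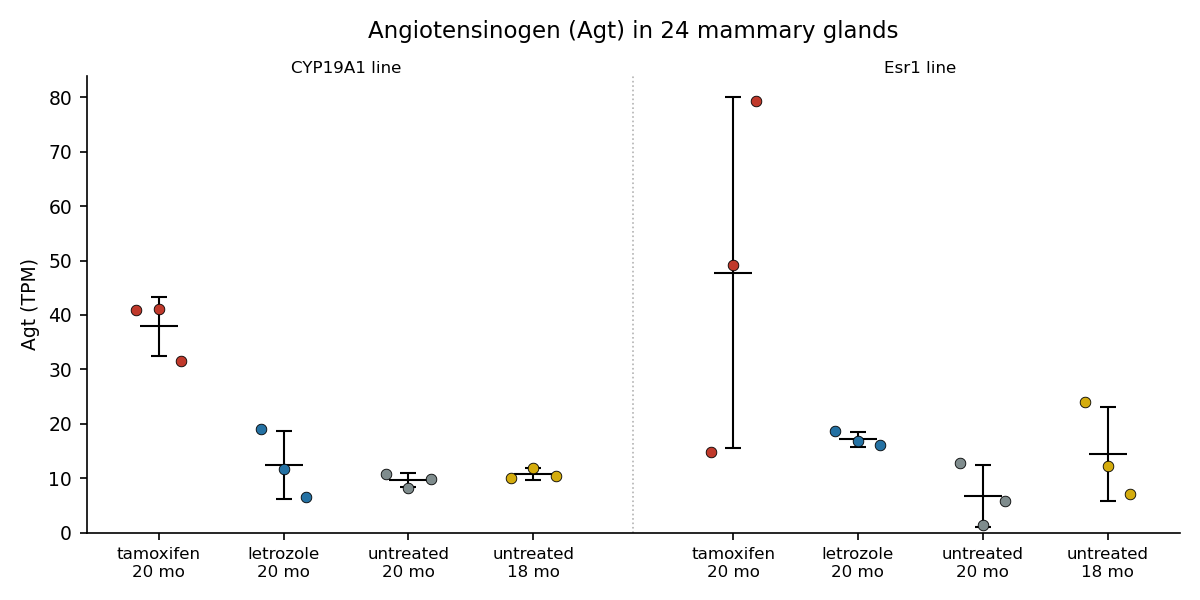
Agt in TPM in each of the 24 glands (points), with group means and SD (bars), by line and condition. The 3 CYP19A1 tamoxifen glands lie between 31.6 and 41.2 TPM, above all other CYP19A1 glands, while the Esr1 tamoxifen glands spread from 14.9 to 79.3 TPM.

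The order of the Agt group means, from the highest, was Esr1 tamoxifen at 47.8 ± 32.2 TPM (SD, n = 3), CYP19A1 tamoxifen at 37.9 ± 5.46, Esr1 letrozole at 17.2 ± 1.37, Esr1 at 18 months at 14.5 ± 8.67, CYP19A1 letrozole at 12.5 ± 6.28, CYP19A1 at 18 months at 10.8 ± 1.05, CYP19A1 untreated at 9.66 ± 1.29 and Esr1 untreated at 6.72 ± 5.73. Among neighbours in this order, the ranges of glands were apart only between CYP19A1 tamoxifen and Esr1 letrozole. The other neighbours overlapped. The tamoxifen difference was not shown to depend on the line: the CYP19A1 difference minus the Esr1 difference was -0.83 ± 0.79, and its sign turned, to 0.50, without the 3 libraries over 1% ribosomal RNA.

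Markers of the cell types a gland can hold were set beside these values. Of 10 white adipocyte markers and 10 fibroblast markers, none passed in either direction with tamoxifen by limma at an adjusted p under 0.05, in either line or averaged over the lines. At an unadjusted p under 0.05 in limma, 4 of the adipocyte markers and 1 of the fibroblast markers did so in the average. Over all 19325 tested genes, 2408 did. White adipocyte markers summed to 6544 to 7488 TPM in CYP19A1 tamoxifen glands and to 4633 to 6525 TPM in CYP19A1 untreated glands, so that these sums did not overlap. The Esr1 sums were 3397 to 6653 TPM with tamoxifen and 1266 to 6540 TPM untreated. The part of adipocyte content in Agt was not tested beyond the covariate fit, given above for the Esr1 line only. In the CYP19A1 line the Agt tamoxifen difference went as low as 1.37 over the alternative analyses. The 8 hepatocyte markers summed to 16.7 to 23.9 TPM with tamoxifen and 52.1 to 337 TPM untreated in the CYP19A1 line, and to 8.54 to 52.5 TPM with tamoxifen and 19.0 to 36.2 TPM untreated in the Esr1 line. Cyp2e1 alone ranged from 4.09 to 333 TPM over the 24 glands, while none of the other 7 exceeded 6.85 TPM, with Alb at or under 5.02 TPM, Ttr at or under 0.23 TPM and Ahsg at or under 0.22 TPM. The 3 of them that were tested had a median tamoxifen difference of -0.84 in the CYP19A1 line and -0.93 in the Esr1 line, and none passed, although 3 and 2 had an unadjusted p under 0.05 in limma. Among all 19325 tested genes, 846 and 3556 had one in these comparisons. The sum of 7 basal epithelial markers was 245 to 300 TPM with tamoxifen and 70.4 to 113 TPM untreated in the CYP19A1 line, and most of that came from the oxytocin receptor gene Oxtr, at 212 to 261 TPM with tamoxifen and 31.2 to 60.1 TPM untreated. The other 6 basal markers summed to 33.2 to 51.1 TPM with tamoxifen and 35.7 to 53.5 TPM untreated, which overlap.

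Outside the 7 genes, the pathway was followed through 25 further genes, of which 20 were abundant enough to test. The tissue kallikrein gene Klk1, whose product releases kinins from kininogens, was the only one of the 20 past the threshold with tamoxifen. It reached 1 TPM in 5 glands, all with tamoxifen, so it entered the test only through the glands where it was high, and its values below come from the limma fit of all 46825 genes above 0, with no filter on low values. Its level was 4.34, 3.95 and 3.24 TPM in the CYP19A1 tamoxifen glands and 0.08, 0.03 and 0.05 TPM in the untreated glands, which did not overlap. The difference was 2.19 ± 0.26 (SE; adjusted p = 0.000504 in limma), in a comparison where 0.0705% of genes passed, or 0.16% of 19325 with the filter. Among Esr1 mice Klk1 measured 0.06, 1.96 and 1.39 TPM with tamoxifen and 0.48, 0.12 and 0.30 TPM untreated. Replicates 2 and 3 were above all untreated glands and replicate 1 was below them all, and the difference of 0.60 ± 0.26 did not pass in limma (adjusted p = 0.347, where 0.506% of genes passed, or 1.55% with the filter). Averaged over the lines the Klk1 difference was 1.40 ± 0.18 (adjusted p = 0.000975 in limma, where 0.303% of genes passed, or 0.492% with the filter). The difference between the lines in the response, 1.60 ± 0.36, did not pass in limma (adjusted p = 0.286, where 0.00854% of genes passed). With the filter 0% of the 19325 genes passed in that interaction, although 2021 had an unadjusted p under 0.05 in limma; 1 of the 20 pathway genes passed with the muscle and adipocyte covariates, and also without the 3 libraries over 1% ribosomal RNA.

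**Figure D3:**
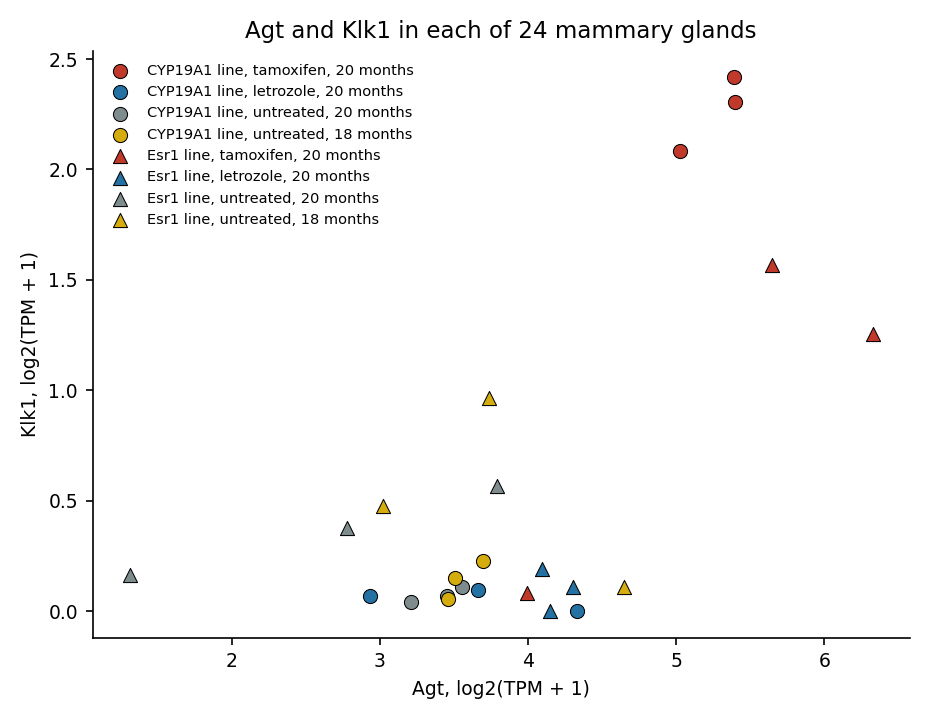
Agt against Klk1 in each gland, both as log2(TPM + 1), with circles for the CYP19A1 line, triangles for the Esr1 line and colours for the condition. The 3 CYP19A1 tamoxifen glands and Esr1 tamoxifen replicates 2 and 3 lie at the upper right, and Esr1 tamoxifen replicate 1 lies with the glands that had no tamoxifen.

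Esr1 tamoxifen replicate 1 thus had the lowest Agt and the lowest Klk1 of the 6 tamoxifen glands. Klk1 belongs to a family of near-identical copies between which reads can be split wrongly, so single members are uncertain. The summed level of Klk1 and 13 Klk1b genes was 7.58, 8.42 and 6.13 TPM in CYP19A1 tamoxifen glands and 0.35, 0.19 and 0.29 TPM in CYP19A1 untreated glands. The Esr1 sums were 2.17, 10.7 and 17.9 TPM with tamoxifen and 0.77, 0.55 and 0.80 TPM untreated. At 20 months all tamoxifen sums were above all untreated sums, and 2.06 TPM of the lowest came from Klk1b22, which was at 0 in every CYP19A1 gland. At 18 months the Esr1 sums were 3.0, 5.69 and 5.25 TPM, all above that lowest tamoxifen sum. After the values were seen, the 22 genes that passed as higher with tamoxifen in the CYP19A1 line were followed in the Esr1 tamoxifen glands. Agt was not considered for this list, because this contrast chose it. Of these, 18 in replicate 1 and 22 in each of replicates 2 and 3 were above all Esr1 untreated glands. The share of all genes above those glands was not counted, so these counts have no background to be read against. The untreated glands also include the library with most ribosomal RNA.

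The promoters of Agt and Klk1, the pathway genes with the largest tamoxifen differences in the CYP19A1 line, are shown for the 250 bases before each start (RefSeq, GRCm38.p6, the assembly also called mm10), as chr8:124569707-124569956 on the minus strand for Agt and chr7:44225110-44225359 on the plus strand for Klk1. Capitals mark GGTCA, the core letters of oestrogen receptor binding sites, or its reverse complement TGACC, and the TATA box letters TATAAA, searched on both strands.
Agt: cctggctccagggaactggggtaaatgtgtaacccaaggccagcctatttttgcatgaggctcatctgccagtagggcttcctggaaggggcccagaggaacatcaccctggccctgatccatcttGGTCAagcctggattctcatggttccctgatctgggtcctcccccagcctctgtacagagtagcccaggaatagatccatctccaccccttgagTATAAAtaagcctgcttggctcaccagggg
Klk1: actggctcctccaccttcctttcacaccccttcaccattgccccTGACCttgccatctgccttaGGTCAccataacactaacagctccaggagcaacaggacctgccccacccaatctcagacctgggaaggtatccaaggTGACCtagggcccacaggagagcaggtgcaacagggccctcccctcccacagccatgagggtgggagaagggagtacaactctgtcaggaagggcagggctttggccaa
Agt held GGTCA at position -124 from the start and TATAAA at -30. Klk1 held the core letters at -206, -186 and -109, with the outer matches on the minus strand, and no TATAAA. The full palindrome GGTCANNNTGACC, which contains the core letters on both strands, was in neither window. Of 32851 RefSeq promoters cut to the same length, 35.2% held GGTCA, 12.4% held TATAAA and 0.0639% held the palindrome. These matches describe letters only.

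Ace, Mas1 and Lnpep overlapped between tamoxifen and untreated glands in both lines, and Agtr1a did so in the Esr1 line. Ace measured 14.4, 15.8 and 11.8 TPM in CYP19A1 tamoxifen glands and 18.9, 15.8 and 20.5 TPM in CYP19A1 untreated glands, a difference of -0.37 ± 0.25. Esr1 glands had 12.6, 18.2 and 12.1 TPM with tamoxifen and 16.1, 6.07 and 11.6 TPM untreated, a difference of 0.39 ± 0.25 that was -0.36 without the 3 libraries over 1% ribosomal RNA.

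Agtr1a measured 7.68, 6.85 and 7.21 TPM in CYP19A1 tamoxifen glands and 7.73, 8.36 and 8.58 TPM in untreated ones. These sets did not overlap, but the nearest glands, at 7.68 and 7.73 TPM, almost met, and the difference was -0.16 ± 0.37. Esr1 glands had 6.83, 7.98 and 7.99 TPM with tamoxifen and 8.11, 6.71 and 16.5 TPM untreated, a difference of -0.32 ± 0.37. Mas1 differed by 0.02 ± 0.25 in the CYP19A1 line and by 0.28 ± 0.25 in the Esr1 line, and Lnpep by 0.07 ± 0.23 in the CYP19A1 line and 0.51 ± 0.23 in the Esr1 line. The Esr1 difference of Lnpep was -0.15 without the 3 libraries over 1% ribosomal RNA.

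Renin and Agtr2 were too low to test. Ren1 was listed at 0.22, 0.50 and 0.11 TPM in CYP19A1 tamoxifen glands and at 0.09, 0.06 and 0.21 TPM in untreated ones, and in the Esr1 line at 0.05, 0 and 0.02 TPM with tamoxifen and at 0.10, 0.02 and 0 TPM untreated. The sets overlap in both lines. Agtr2 was at 0.03, 0.04 and 0.03 TPM with tamoxifen and at 0.44, 0.11 and 0.27 TPM untreated in the CYP19A1 line, without overlap. The Esr1 line had 0.01 TPM in all 3 tamoxifen glands and 0.10, 0.01 and 0 TPM in the untreated glands. With no counts behind these values, no fold is given.

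**Figure D4:**
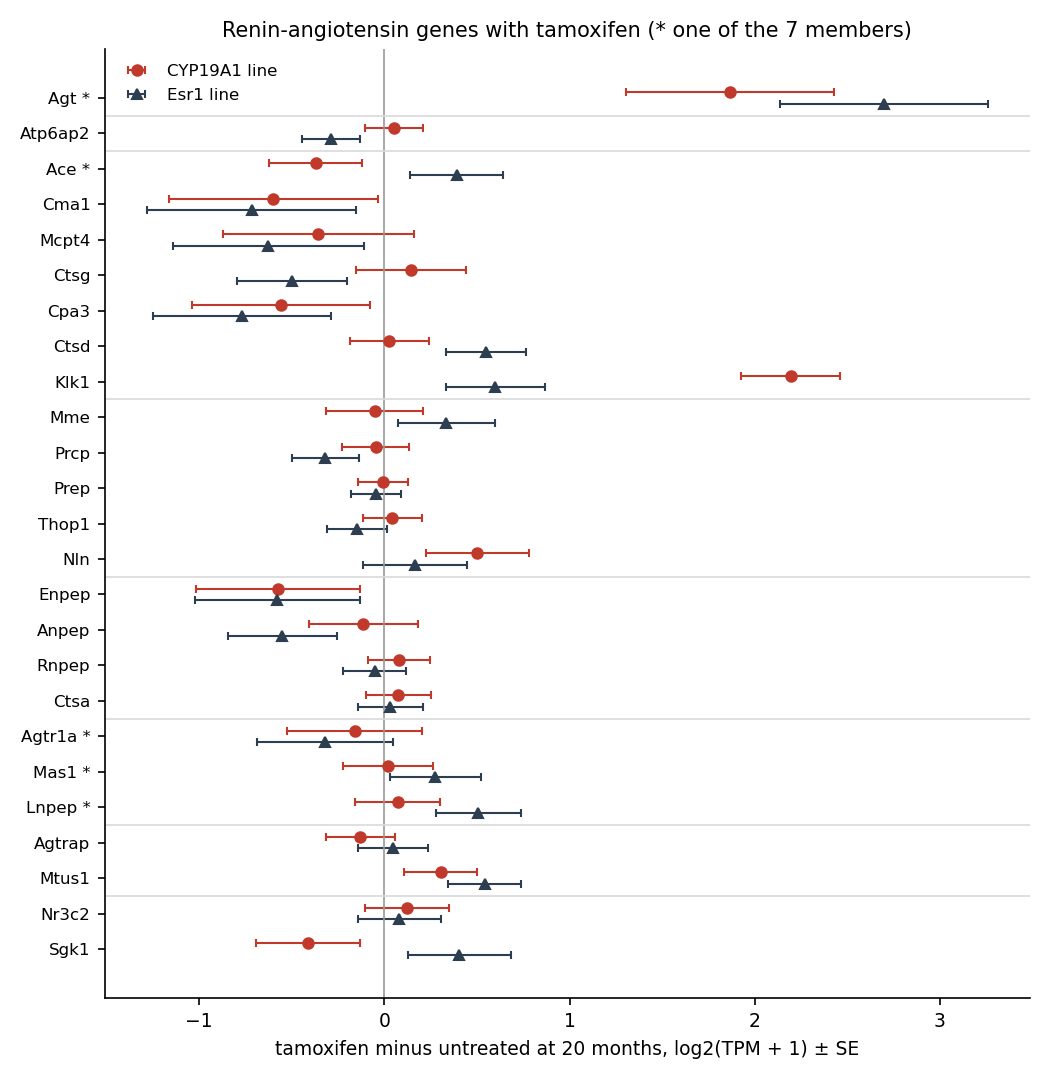
Difference between tamoxifen and untreated glands at 20 months for the 25 tested pathway genes, as log2(TPM + 1) with SE bars, with circles for the CYP19A1 line and triangles for the Esr1 line; an asterisk marks genes of the set of 7 and thin lines part the roles. Agt stands to the right in both lines, at 1.87 and 2.70, and Klk1 at 2.19 in the CYP19A1 line.

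Apart from Klk1, none of the 20 tested pathway genes outside the set of 7 passed with tamoxifen, and their differences went both ways. The 20 genes outside the set had a median difference of 0.01 in the CYP19A1 line and -0.05 in the Esr1 line, beside medians of 0.05 and 0.05 over all tested genes. At an unadjusted p under 0.05 in limma there were 1 of the 20 in the CYP19A1 line and 3 in the Esr1 line, beside 846 and 3556 of the 19325 genes. Nln, whose product neurolysin is a peptidase that cleaves small peptides, measured 16.7, 15.7 and 14.6 TPM in CYP19A1 tamoxifen glands and 12.8, 11.8 and 8.16 TPM in untreated ones (0.50 ± 0.28, adjusted p = 1 in limma). Enpep, the aminopeptidase that turns angiotensin II into angiotensin III, measured 14.1, 10.5 and 10.4 TPM with tamoxifen and 17.9, 19.7 and 15.7 TPM untreated in that line (-0.58 ± 0.45, adjusted p = 1 in limma). Sgk1, a kinase induced by aldosterone, measured 34.0, 37.0 and 23.0 TPM with tamoxifen and 42.5, 38.1 and 43.2 TPM untreated (-0.41 ± 0.28, adjusted p = 1 in limma). These 3 genes did not overlap between the CYP19A1 groups but did between the Esr1 groups, where the differences were 0.16 for Nln, -0.58 for Enpep and 0.40 for Sgk1. The most abundant was the aspartic protease gene Ctsd, at 263 to 293 TPM in CYP19A1 tamoxifen glands and 241 to 296 TPM in untreated ones. Mtus1, whose product interacts with the Agtr2 receptor, measured 54.5, 52.0 and 52.9 TPM in CYP19A1 tamoxifen glands and 43.2, 37.0 and 49.2 TPM in untreated glands. These did not overlap, but its difference averaged over the lines, 0.42 ± 0.14, did not pass (adjusted p = 0.217 in limma). Nln, Enpep, Sgk1 and Mtus1 were named after their values were seen. The share of all tested genes without overlap between the CYP19A1 groups was not counted, so their separation has no background to be read against.

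With letrozole, no gene of the set passed in either line in limma, while 3 of the 5 tested had an unadjusted p under 0.05 in the Esr1 line and 0 in the CYP19A1 line, beside 5006 and 733 of the 19325 genes. Agt measured 18.7, 16.8 and 16.1 TPM in Esr1 letrozole glands and 12.8, 1.48 and 5.84 TPM in Esr1 untreated glands, without overlap. The difference of 1.56 ± 0.56 missed the threshold (adjusted p = 0.0889 in limma), in a comparison where 8.65% of genes passed. It passed at 2.14 without Esr1 untreated replicate 1 (adjusted p = 0.0172 in limma) and under both other scalings, and it was 0.34 without the 3 libraries over 1% ribosomal RNA. In the CYP19A1 line Agt measured 19.1, 11.7 and 6.65 TPM with letrozole and 10.8, 8.24 and 9.96 TPM untreated. The letrozole glands spread to both sides of the untreated ones, with a difference of 0.24 ± 0.56 (adjusted p = 1 in limma, where 0.0207% of genes passed). Averaged over the lines the difference was 0.90 ± 0.40 (adjusted p = 0.217 in limma, where 3.22% of genes passed), and the lines' letrozole differences were not shown to differ, at -1.32 ± 0.79 (adjusted p = 0.516 in limma, where 0% of genes passed and 2277 had an unadjusted p under 0.05).

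Ace and Lnpep also lay higher on average with letrozole in the Esr1 line without passing. Ace measured 19.7, 17.5 and 14.1 TPM with letrozole and 16.1, 6.07 and 11.6 TPM untreated, a difference of 0.64 ± 0.25 (adjusted p = 0.111 in limma) that was 0.07 without the 3 libraries over 1% ribosomal RNA. Lnpep measured 52.7, 51.6 and 52.5 TPM with letrozole and 55.3, 19.4 and 38.4 TPM untreated, a difference of 0.58 ± 0.23 (adjusted p = 0.115 in limma) that was -0.08 without the 3 libraries over 1% ribosomal RNA. Without Esr1 untreated replicate 1, the difference was 0.93 for Ace (adjusted p = 0.0165 in limma) and 0.91 for Lnpep (adjusted p = 0.00705 in limma), so both then passed. They also passed under both other scalings. Luminal epithelial markers fell in the same comparison, 6 of 10 of them, with summed levels of 151 to 220 TPM in letrozole glands and 523 to 667 TPM in untreated glands. White adipocyte markers had a median difference of 1.21, with none of 10 past the threshold and 7 at an unadjusted p under 0.05 in limma, and summed to 5761 to 6541 TPM with letrozole and 1266 to 6540 TPM untreated. Endothelial markers had a median difference of 0.45, with none of 10 past the threshold and 3 at an unadjusted p under 0.05 in limma, and summed to 222 to 268 TPM with letrozole and 107 to 238 TPM untreated. The part of these cell types in the values of Agt, Ace and Lnpep was not tested beyond the fit with muscle and adipocyte covariates. In that fit none of these genes passed.

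Of the 20 other pathway genes, 1 passed with letrozole in the Esr1 line and none in the CYP19A1 line, where 1 had an unadjusted p under 0.05 in limma. With 8.65% of all genes past the threshold in the Esr1 comparison, 1 in 20 is no more than that background. Anpep, an aminopeptidase that shortens angiotensins, fell to 20.7, 18.0 and 21.7 TPM in letrozole glands, against 42.9, 38.4 and 49.7 TPM in untreated glands. The sets are far apart, and the difference was -1.08 ± 0.29 (adjusted p = 0.0284 in limma). The call was lost in 8 of 32 alternative analyses, among them leaving out any of the 3 letrozole glands or untreated replicate 2 or 3, with an adjusted p of up to 0.141 in limma. In the CYP19A1 line Anpep measured 15.0, 21.1 and 26.4 TPM with letrozole and 24.9, 23.1 and 19.5 TPM untreated, which overlap.

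The 2 drugs were then set against each other. Agt was higher with tamoxifen than with letrozole by 1.63 ± 0.56 in the CYP19A1 line, where the 3 tamoxifen glands at 31.6 to 41.2 TPM were above the letrozole glands at 6.65 to 19.1 TPM. In the Esr1 line the difference was 1.14 ± 0.56, and tamoxifen replicate 1 at 14.9 TPM was below all 3 letrozole glands. These differences rest on the tamoxifen samples that chose the gene and carry no test. Klk1 was at 0, 0.07 and 0.05 TPM in CYP19A1 letrozole glands, and it was higher with tamoxifen by 2.21 ± 0.26 (adjusted p = 0.000395 in limma with no filter, where 0.0982% of genes passed, or 0.248% with it). In the Esr1 line the Klk1 difference of 0.87 did not pass (adjusted p = 0.33 in limma with no filter, where 0.124% of genes passed, or 0.129% with it), and averaged over the lines it was 1.54 ± 0.18 (adjusted p = 0.000248 in limma with no filter, where 0.342% passed, or 0.709% with it). Ace, Agtr1a, Mas1 and Lnpep differed between the drugs by at most 0.25 in size in either line, and none passed.

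At 20 against 18 months in the CYP19A1 line, 9.45% of genes passed, and Agtr1a lay lower and Ace higher without passing. Age here cannot be told apart from the longer induction and the PLA tag. Agtr1a measured 7.73, 8.36 and 8.58 TPM at 20 months and 25.3, 20.6 and 12.7 TPM at 18 months. All 20-month glands were below all 18-month glands, and the difference was -1.10 ± 0.37 (adjusted p = 0.061 in limma). Ace measured 18.9, 15.8 and 20.5 TPM at 20 months and 11.2, 10.7 and 11.6 TPM at 18 months. All 20-month glands were above all 18-month glands, and the difference was 0.67 ± 0.25 (adjusted p = 0.0885 in limma).

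Both values were close to the threshold, and the choice of analysis decided the call. Agtr1a passed in 8 of 32 alternatives, with a lowest adjusted p of 0.00373 in limma at -1.73 with the muscle and adipocyte covariates. It also passed without CYP19A1 18-month replicate 3, at -1.37 (adjusted p = 0.0334 in limma). The call likewise appeared at the same difference when CYP19A1 letrozole replicate 1 or 3, Esr1 untreated replicate 2 or 3 or Esr1 18-month replicate 1 was left out. Ace passed in 4 of 32, with a lowest adjusted p of 0.00259 in limma at 0.91 with median-ratio scaling, and among them without Esr1 untreated replicate 2. The median of all genes in this comparison was -0.23, and -0.05 after rescaling without the 100 most abundant gene models, under which Ace differed by 0.94 (adjusted p = 0.00636 in limma). Of all tested genes 581 passed as higher and 1246 as lower, and after that rescaling 1268 and 425, so the split of the calls between higher and lower depended on the scaling. Skeletal muscle markers summed to 17125 to 28951 TPM at 20 months and to 21.6 to 6290 TPM at 18 months in this line, and smooth muscle and pericyte markers, from cells known to carry the receptor, to 341 to 377 TPM at 20 months and 417 to 476 TPM at 18 months. Endothelial markers, from cells known for Ace, summed to 259 to 284 TPM at 20 months and 299 to 364 TPM at 18 months. The median difference was -0.24 for the smooth muscle and pericyte markers and -0.26 for the endothelial markers, close to the -0.23 of all genes. In limma 1 of the 10 smooth muscle and pericyte markers passed, as higher, and none as lower. The part of these tissues in the 2 genes was not tested beyond the covariate fit.

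In the Esr1 line neither gene moved with age in this way. Agtr1a measured 8.11, 6.71 and 16.5 TPM at 20 months and 5.15, 10.9 and 12.8 TPM at 18 months, a difference of 0.09 ± 0.37 (adjusted p = 0.959 in limma, where 0.00517% of genes passed). Ace measured 16.1, 6.07 and 11.6 TPM at 20 months and 6.83, 12.8 and 11.4 TPM at 18 months. Both sets overlap. The age difference of Agtr1a was not shown to differ between the lines, at -1.20 ± 0.52 (adjusted p = 0.545 in limma, where 0.00517% of genes passed). Agt showed no age difference past the threshold, at -0.15 ± 0.56 in the CYP19A1 line (adjusted p = 0.881 in limma) and -1.17 ± 0.56 in the Esr1 line (adjusted p = 0.73 in limma).

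Of the 20 other pathway genes, 2 passed with age in the CYP19A1 line, both lower at 20 months, and none in the Esr1 line, where 1 had an unadjusted p under 0.05 in limma. A share of 2 in 20 is near the 9.45% of all genes that passed in this comparison, so the count says nothing particular of the pathway. Prcp, a carboxypeptidase that degrades angiotensin II, fell to 13.6, 10.5 and 9.58 TPM at 20 months, against 22.6, 19.6 and 16.4 TPM at 18 months (-0.75 ± 0.18, adjusted p = 0.0197 in limma). Atp6ap2, the prorenin receptor and a subunit of the vacuolar proton pump, fell to 18.3, 18.0 and 14.5 TPM at 20 months, against 24.3, 28.0 and 22.6 TPM at 18 months (-0.53 ± 0.16, adjusted p = 0.039 in limma). The groups did not overlap for either gene. Prcp lost its call in 4 of 32 alternatives, among them without CYP19A1 20-month replicate 2 or 3 or 18-month replicate 1. Atp6ap2 lost it in 13, among them without any of the 3 20-month glands or without 18-month replicate 1 or 2. Its difference was -0.31 after rescaling without the 100 most abundant gene models and -0.28 with median-ratio scaling, where all genes had medians of -0.05 and -0.02.

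The list also held genes of mast cell proteases. Among them, Cma1 measured 53.7, 23.8 and 37.5 TPM at 20 months and 19.5, 14.8 and 14.1 TPM at 18 months in the CYP19A1 line. The groups did not overlap, and the difference of 1.14 ± 0.57 did not pass (adjusted p = 0.187 in limma). Summed mast cell markers, Cma1 among them, were 97.7 to 174 TPM at 20 months and 65.7 to 109 TPM at 18 months.

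**Figure D5:**
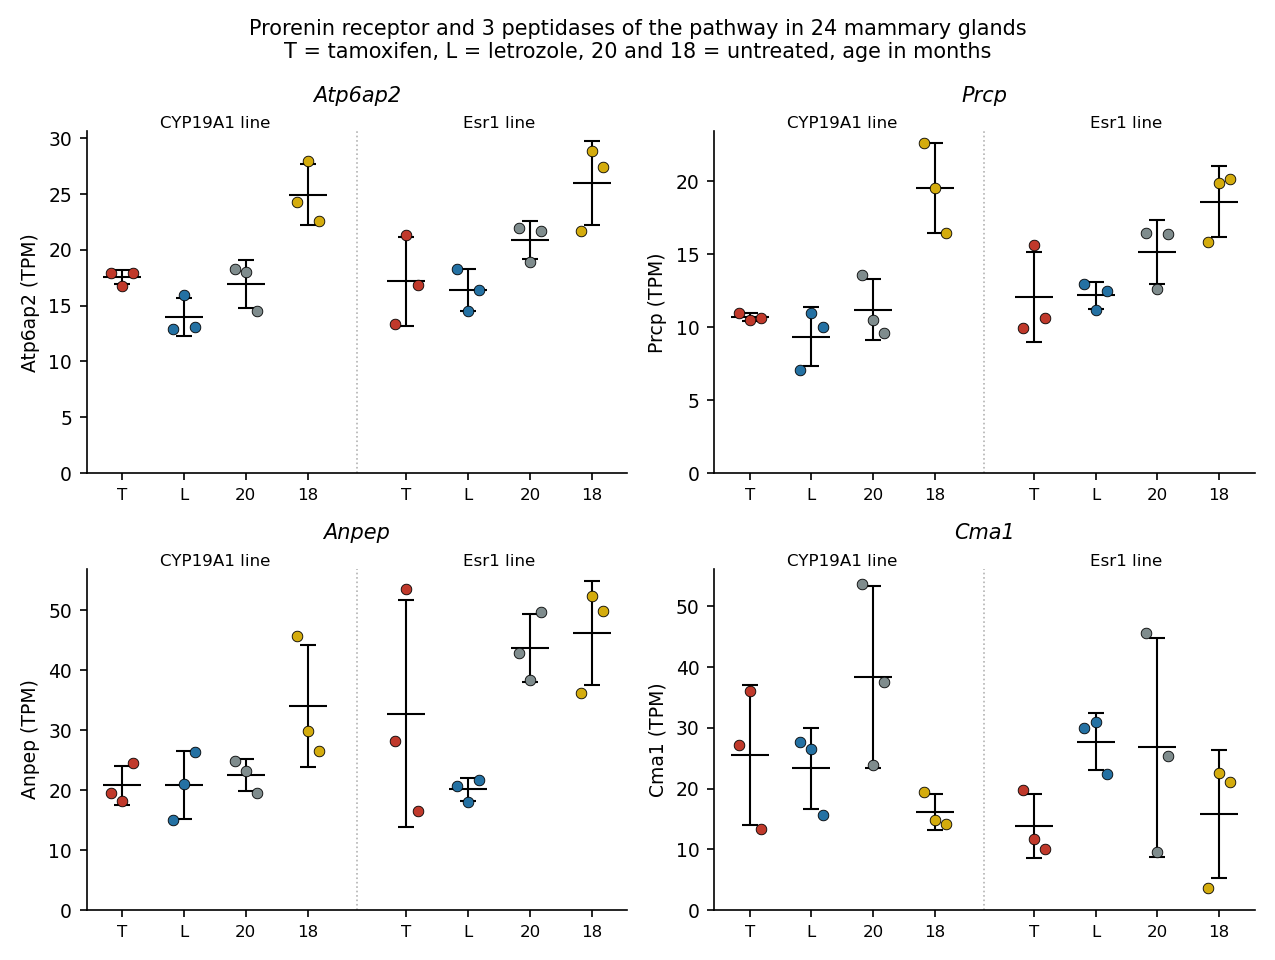
TPM of Atp6ap2, Prcp, Anpep and Cma1 in each of the 24 glands (points), with group means and SD (bars); T is tamoxifen, L letrozole, 20 and 18 are untreated glands by age in months. The highest group mean is that of the CYP19A1 glands at 18 months for Prcp and that of the Esr1 glands at 18 months for Atp6ap2, and Anpep in Esr1 letrozole glands, at 18.0 to 21.7 TPM, is below Anpep in Esr1 untreated glands.

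No gene of the set passed between the lines in limma, although Agtr1a at 18 months and Ace at 20 months had an unadjusted p under 0.05. Averaged over the 4 conditions, where 7.27% of genes passed, the CYP19A1 minus Esr1 differences ran from -0.01 ± 0.28 for Agt to 0.20 ± 0.13 for Ace. At 18 months, where 1.36% passed, Agtr1a was at 25.3, 20.6 and 12.7 TPM in CYP19A1 glands and 5.15, 10.9 and 12.8 TPM in Esr1 glands. The lowest CYP19A1 gland was just under the highest Esr1 gland, and the difference was 0.98 ± 0.37 (adjusted p = 0.334 in limma). It passed at 1.23 with the muscle and adipocyte covariates (adjusted p = 0.0406 in limma). At 20 months untreated, where 5.27% passed, Ace was at 18.9, 15.8 and 20.5 TPM in CYP19A1 glands and 16.1, 6.07 and 11.6 TPM in Esr1 glands (0.74 ± 0.25, adjusted p = 0.0857 in limma). It passed under both other scalings and, at 1.03, without Esr1 untreated replicate 1 (adjusted p = 0.0169 in limma). Without the 3 libraries over 1% ribosomal RNA, which left 1 untreated Esr1 gland, the Ace difference was 0.17. None of the 20 other pathway genes passed in these 3 comparisons, where 4, 2 and 5 had an unadjusted p under 0.05 in limma on average, at 18 months and at 20 months, beside 3623, 1619 and 4176 of the 19325 genes. Agtr2, which was not tested, had a median of 0.11 TPM in the 12 CYP19A1 glands and 0.01 TPM in the 12 Esr1 glands.

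The genes whose profile over the 24 glands was most like that of Agt were found by Pearson's r of log2(TPM + 1) among 11919 named genes with a mean of at least 2 TPM. They were Tstd3 (r = 0.945), Ampd3 (0.909), Thbs2 (0.908), Adamts2 (0.905) and Metrn (0.902). Tstd3 measured 9.56 to 11.9 TPM in CYP19A1 tamoxifen glands and 4.13 to 4.42 TPM in CYP19A1 untreated glands. Over the 18 glands without tamoxifen its r with Agt was 0.901, and without the 2 glands farthest from the Agt median it was 0.901. Tstd3 was picked by its r over all 24 glands, which include these 18, so its r among them is no separate support. Over the same 18 glands r was 0.771 for Ampd3, 0.779 for Thbs2, 0.782 for Adamts2 and 0.878 for Metrn. They also include Esr1 untreated replicate 2, the library with most ribosomal RNA, at 1.48 TPM for Agt and 1.15 TPM for Tstd3. The leading genes for the others were Ap1s2 for Ace (0.929), Sf1 for Agtr1a (0.867), Reln for Mas1 (0.782) and Spag9 for Lnpep (0.939). All these values describe the same 24 libraries, which share differences in tissue content, so they carry no test.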

How the data were processed

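RNA was measured in 24 mammary glands, in 8 groups of 3 mice each, with a separate animal number per gland. Per the labels, total RNA was cleared of ribosomal RNA and made into stranded libraries with random priming. The authors deposited TPM values to 2 decimals. RSEM 1.3.1, STAR 2.7.9a, Trim Galore 0.6.5, FastQC 0.11.9 and build mm10 are listed, with no roles, in the submitters' processing notes. The annotation behind the values is not stated. Because TPM carries no depth, counting error could not be bounded.

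The fit used limma 3.58.1 (R 4.3.3; trend and robust settings) on log2(TPM + 1), a scale that understates changes of low genes. All 24 samples entered in 8 groups, with the 19325 genes that reached 1 TPM in 3 or more samples. P-values were Benjamini-Hochberg adjusted over all tested genes in each comparison, with a threshold of 0.05. The pipeline was tested on simulated data. Alternatives were a pseudocount of 0.1, no filter, rescaling without the 100 most abundant gene models, median-ratio scaling, muscle and adipocyte covariates, the replicate block, a fit of the compared groups alone, each sample left out, and, added after the data were seen, leaving out the 3 libraries over 1% ribosomal RNA.

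The 7 genes, the pathway list and the marker lists were chosen with earlier results of these data known. Named were the 7 genes, pathway genes that passed, the most abundant pathway genes and the closest profiles; Nln, Enpep, Sgk1, Mtus1, Cma1, Oxtr, Agtr1b and the Klk1b genes were added after their values were seen, and Klk1, which passed the filter only through tamoxifen glands, is given from the fit with no filter. The values of 1 pathway gene are not reported here. Promoters came from RefSeq (GRCm38.p6), in which 6 of the 7 genes matched; Agtr1a did not.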

Additional observations from a re-analysis of the deposited data

How the results depend on the processing

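Several results changed without the 3 libraries over 1% ribosomal RNA or without single untreated Esr1 glands. Over the 32 alternatives, the Agt tamoxifen difference in the CYP19A1 line lay between 1.37 and 1.99, averaged over the lines between 1.62 and 2.61, and in the Esr1 line between 1.37 and 3.36, where it was 1.95 with the covariates and 1.37 without the 3 libraries. The Agt letrozole difference in the Esr1 line was 1.74 rescaled and 1.61 with median-ratio scaling, both past the threshold. Signs turned for Agt without passing. With age in the CYP19A1 line it was 0.078 rescaled and 0.089 with median-ratio scaling; between untreated lines at 20 months it was -0.088 with covariates and -0.38 without the 3 libraries; averaged over conditions it was 0.022 with a pseudocount of 0.1. Without the 3 libraries the tamoxifen interaction was 0.50 and the age interaction -0.14, and in the Esr1 line the tamoxifen differences of Ace and Lnpep were -0.36 and -0.15 and the letrozole difference of Lnpep was -0.080. The cause was not tested.

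Leaving out single replicates gave Agt ranges of -0.11 to 0.59 for letrozole in the CYP19A1 line, 0.90 to 2.14 for letrozole in the Esr1 line, -0.64 to 0.18 between lines at 18 months and -0.18 to 0.13 between lines on average. The counts of other pathway genes then ran from 0 to 1 for tamoxifen in the Esr1 line, 1 to 2 for its average, 0 to 1 for letrozole in the Esr1 line and on average, 0 to 1 for tamoxifen against letrozole in the Esr1 line, 0 to 3 for age in the CYP19A1 line, 0 to 2 between untreated lines at 20 months and 0 to 1 between lines on average.

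Counts of the 20 other pathway genes moved as follows. With tamoxifen in the Esr1 line 1 was higher rescaled, 1 was lower with median-ratio scaling and 2 with the covariates, and 1 was lower averaged over the lines with the covariates. With letrozole in the Esr1 line 0 were lower with no filter, with the covariates and without the 3 libraries; 1 was lower averaged over the lines when only the compared groups were fitted. With age in the CYP19A1 line 1 was higher rescaled and 2 with median-ratio scaling, while 1 was lower with no filter, with either scaling and with the replicate block, 4 with the covariates and 0 with only the compared groups. Between lines at 20 months 1 was higher with median-ratio scaling and 2 were lower with either scaling; averaged, 3 were lower rescaled and 2 with median-ratio scaling. In the tamoxifen interaction 1 was higher with the covariates and without the 3 libraries.

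Of 62 tested values of the 7 genes, none passed as reported, and 27 of their 1984 alternatives did, spread over 9 values; 107 changed sign. Counts of all genes that passed moved by over 1.5 times, with ranges over the alternatives of 15 to 147 around 31 for tamoxifen in the CYP19A1 line, 6 to 1881 around 299 in the Esr1 line and 65 to 437 around 95 on average; 0 to 9 around 4, 207 to 4111 around 1672 and 0 to 1897 around 623 for letrozole; 21 to 88 around 48, 1 to 103 around 25 and 70 to 492 around 137 between drugs; 2 to 5442 around 1827 and 0 to 17 around 1 for age; 144 to 486 around 262, 256 to 2854 around 1019 and 1158 to 2259 around 1404 between lines; and 0 to 228 around 0, 0 to 77 around 0 and 0 to 64 around 1 for the interactions with tamoxifen, letrozole and age.

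Same-numbered replicates did not deviate together: in 0 of 28 group pairs was every correlation over 0.1 (range -0.413 to 0.296). The replicate block left 50 of 51 main results unchanged; the exception is the count of 2 lower pathway genes with age in the CYP19A1 line, which became 1. Depth could not be weighed.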
